A study of Mus musculus with 8 samples.

Results

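Heterotrimeric G proteins and the regulators of G protein signalling (RGS proteins) were examined in C low-threshold mechanoreceptors (C-LTMRs), the unmyelinated sensory neurons that detect gentle touch and whose cell bodies lie in the dorsal root ganglia. The genes were taken by symbol: every gene of the exon count table whose Ensembl mouse symbol begins as those of the G alpha, G beta, G gamma or RGS families do, without opposite-strand transcripts and symbols ending in -ps. This gave 58 of the 55573 genes counted. Of these, 3 are pseudogene copies by name (Gnb1-ps2, Gnb1-ps3 and Gng2-ps1) with few or no counts, which leaves 55 genes. They are 16 alpha, 5 beta, 10 gamma and 20 RGS genes, the anchor genes Rgs7bp and Rgs9bp, and Gnb1l and Rgs22. Gnb1l and Rgs22 were classed apart from the subunit and RGS genes. RNA was sequenced from GFP-positive C-LTMRs sorted by flow cytometry from adult mice that were wild type (WT) or carried a knockout (KO) of bhlha9, which encodes a transcription factor of the basic helix-loop-helix type. Males and females of each genotype were profiled separately with 2 libraries each, which the submitters call biological replicates, and the 8 libraries form 4 groups of n = 2. The strain, the promoter behind the GFP, the kind of knockout allele and the number of animals behind a library are not given in the sources used here.

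A heterotrimeric G protein couples a receptor at the membrane to enzymes and channels inside the cell. The receptor loads the alpha subunit with GTP, alpha and the beta-gamma pair separate, and both act on effectors until alpha hydrolyses its GTP. RGS proteins speed up that hydrolysis and so shorten the signal. In sensory neurons, receptors of the Gi/o family, such as opioid receptors, dampen excitability and transmitter release, whereas Gs and Gq receptors commonly sensitise.

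The libraries held between 50919885 and 71956309 counts assigned to genes. Bhlha9, the knocked-out gene, lay between 127 and 161 CPM (read counts scaled to a common library size) in the 4 WT libraries. In the 4 KO libraries it lay between 0.156 and 0.47 CPM, which matches the labels. C-LTMR markers such as Th (mean 4313 CPM) were high throughout. Markers of other sensory neurons varied between libraries, and their values are given beside the results below. Replicates of a group differed by far more than counting error (chi-square of the counts over its degrees of freedom, 105 to 287). In RNA from sorted pools, fewer expressing cells and less RNA per cell cannot be told apart.

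The last codons of these genes carry features that sort the subunits by how they can be modified. Pertussis toxin, the classic tool for silencing Gi/o signalling, attaches ADP-ribose to a cysteine near the end of the alpha subunit. The last 10 codons of the Gi/o alpha genes with the higher levels are shown 5′ to 3′ from the GENCODE annotation of GRCm38, with the fourth codon from the end in capitals, because this codon separates the toxin-sensitive subunits from Gnaz:
Gnai1: aagaataacctaaaagacTGTggtctcttc
Gnai2: aagaacaacctgaaggacTGTggcctcttc
Gnai3: aaaaacaacttaaaggaaTGTgggctttat
Gnao1: gccaacaatctccggggcTGCggcttgtac
Gnaz: cagaacaatctcaagtacATCggcctttgc
TGT and TGC encode cysteine and ATC encodes isoleucine. Of the 8 Gi/o alpha genes, 7 had the cysteine codon and Gnaz did not. Gnao1 and Gnai2 also have transcripts with another end, since 2 of the 3 annotated coding transcripts of each share the end shown.

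G gamma subunits are anchored in the membrane by a lipid on a cysteine 4 residues from the end, and the last residue decides which lipid is attached: leucine directs a geranylgeranyl group and serine a farnesyl group. The last 6 codons are shown for the 4 gamma genes of highest level, for Gng8, which differed most between male KO and WT libraries, and for Gng11 as the contrasting end, with the cysteine codon and the last codon in capitals:
Gng3: ttcttcTGTgcgctcCTC
Gng2: ttcttcTGCgccatcCTT
Gng10: aggtccTGTgctctaCTT
Gng4: ttcttcTGCaccatcCTC
Gng8: ctctttTGCaccctgCTC
Gng11: ggcagcTGTgtcattTCA
All of the 10 gamma genes had the cysteine codon. The last codon encoded leucine in 9 of them and serine in Gng11.

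C-LTMRs expressed most of these families. Of the 55 genes, 32 had a mean of at least 10 CPM over the 8 libraries: 12 of 16 alpha, 5 of 5 beta, 4 of 10 gamma and 9 of 20 RGS genes, with Rgs7bp and Gnb1l. A further 12 lay between 1 and 10 CPM and 6 below 1 CPM. No count was seen in any library for 5 genes: Gnat3, the alpha subunit of taste cells, and Rgs1, Rgs13, Rgs18 and Rgs21. A count of 3, taken as the floor that a count of 0 allows, equals 0.0421 to 0.0587 CPM in these libraries and covers counting error only. Levels were stable where they were high: 23 of the 32 genes varied by less than 2-fold between the lowest and the highest library. Levels of different genes are compared below only per kilobase (kb) of exon counted, as CPM per kb.

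Among alpha subunits, the order was led by Gnas, which encodes the stimulatory Gs alpha, and Gnai2, an inhibitory Gi alpha. Gnas measured 1824 and 1478 CPM in male WT, 1675 and 2089 in male KO, 1707 and 1761 in female WT, and 1348 and 1812 in female KO libraries. The groups overlapped, and the mean of 150 ± 19.8 CPM per kb (SD, n = 8) exceeded that of Gnai2 in 8 of 8 libraries. Gnai2 measured 503 and 440 CPM in male WT, 337 and 443 in male KO, 444 and 335 in female WT, and 413 and 476 in female KO libraries, with a mean of 112 ± 16 CPM per kb (SD, n = 8). The third alpha gene was Gna12, of the G12/13 class, at 178 and 193 CPM in male WT, 128 and 202 in male KO, 129 and 121 in female WT, and 158 and 214 in female KO libraries. Its mean of 48.4 CPM per kb was not separable from the 46.6 of Gna11, the widely expressed Gq-family subunit that activates phospholipase C beta, since Gna12 was the higher in only 4 of 8 libraries.

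The neuronal Go alpha gene Gnao1 (34.8 CPM per kb) and Gnaz (32.5 CPM per kb), whose product Gz inhibits adenylyl cyclase without sensitivity to pertussis toxin, followed as neighbours, and Gnao1 was the higher in 5 of 8 libraries. Their closeness depends on the exon length used (below). Gnai1 averaged 23.0, Gnaq 22.3, Gnal 18.3, Gnai3 12.9, Gna13 8.19 and Gna14 3.03 CPM per kb. Gnal encodes the Golf alpha of olfactory and striatal neurons, and Gna14 a Gq-family subunit of more restricted distribution. The retinal transducins gave almost nothing, with Gnat2 at 0.294 CPM and Gnat1 at less.

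Summed per kb, the alpha genes reached 513 CPM per kb (459 to 608 over the libraries). The Gi/o class took 42.0% (38.0 to 45.5%), Gs 32.9% (28.9 to 36.7%), an order that depends on the exon length used (below), Gq 14.1% (11.5 to 16.8%) and G12/13 11% (8.51 to 13.2%). Within Gi/o, Gnai2 made up 52.0%, Gnao1 16.2%, Gnaz 15.1%, Gnai1 10.8% and Gnai3 6.0%. Read with the coding ends above, between 82.5% and 87.9% of the Gi/o alpha level per library came from genes with the cysteine codon, and the rest came from Gnaz. These shares within Gi/o also depend on the exon length used (below). Within Gq, Gna11 made up 64.9% and was above Gnaq in 8 of 8 libraries, by 2.09-fold in the means.

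The beta subunits, which form an obligate pair with gamma, were all above 10 CPM. Gnb1 measured 338 and 359 CPM in male WT, 367 and 342 in male KO, 487 and 433 in female WT, and 397 and 382 in female KO libraries. Both female WT libraries lay above the other 6. Gnb2 measured 274 and 215 CPM in male WT, 221 and 220 in male KO, 289 and 316 in female WT, and 232 and 240 in female KO libraries. Gnb1 averaged 91.0 and Gnb2 73.7 CPM per kb, and Gnb1 was the higher in 7 of 8 libraries. Gnb5 encodes the atypical beta subunit that pairs with RGS proteins of the R7 class instead of gamma. It measured 165 and 139 CPM in male WT, 111 and 129 in male KO, 137 and 128 in female WT, and 84.8 and 115 in female KO libraries, with a mean of 40.5 CPM per kb. Gnb3, known from cone photoreceptors, averaged 24.6 CPM per kb, and Gnb4 averaged 3.61.

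A single gene dominated the gamma subunits. Gng3, a gamma subunit of neurons, measured 535 and 417 CPM in male WT, 423 and 446 in male KO, 646 and 594 in female WT, and 485 and 537 in female KO libraries. At 311 ± 50.4 CPM per kb (SD, n = 8) it made up 82.8% of the summed gamma level (78.0 to 86.7%) and exceeded Gng2 by 11.1-fold in the means and in 8 of 8 libraries. Gng2 measured 109 and 99.2 CPM in male WT, 109 and 178 in male KO, 114 and 130 in female WT, and 127 and 114 in female KO libraries. The highest Gng2 value was thus 1 male KO library, and the other 7 lay close together. Gng10 lay between 20.3 and 29.8 CPM with overlapping groups, at 23.7 and 22.6 CPM in male WT, 29.8 and 20.3 in male KO, 28.7 and 24.6 in female WT, and 28.1 and 20.4 in female KO libraries. Gng2 averaged 28.0, Gng10 18.9 and Gng4 6.21 CPM per kb, and this order held in 8 of 8 libraries. Genes with a leucine last codon supplied 99.2 to 100% of the gamma level.

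RGS genes reached the highest levels of any family here, with a sum of 1267 CPM per kb (986 to 1386). Rgs4, a small RGS protein of the R4 class that acts on Gi/o and Gq alpha, measured 1777 and 2332 CPM in male WT, 1301 and 2584 in male KO, 1781 and 1564 in female WT, and 1720 and 1911 in female KO libraries. The male KO libraries held both its lowest and its highest value. Rgs10, a small RGS protein of the R12 class known from brain and immune cells, measured 776 and 747 CPM in male WT, 705 and 660 in male KO, 1005 and 1002 in female WT, and 999 and 910 in female KO libraries. All 4 female libraries lay above all 4 male libraries, a difference that was not among the comparisons tested.

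Rgs4 averaged 604 ± 133 and Rgs10 497 ± 84.5 CPM per kb (SD, n = 8), ranks 81 and 101 among the 31181 genes with any count. Their order was not fixed, since Rgs4 was the higher in 5 of 8 libraries. Together they made up most of the RGS level, with mean shares of 47.4% and 39.4%. Rgs5, an R4 protein often used as a pericyte marker, measured 338 and 447 CPM in male WT, 398 and 337 in male KO, 439 and 428 in female WT, and 545 and 438 in female KO libraries, with a mean of 92.7 CPM per kb. Rgs8 (20.4 CPM per kb), Rgs19 (13.5), Rgs14 (3.58) and Rgs17 (2.68) were lower, and Rgs2, Rgs12, Rgs3, Rgs16 and Rgs20 averaged between 1 and 10 CPM.

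Members of the R7 class work as a complex with Gnb5 and a membrane anchor. Rgs11 supplied on average 86.7% of the R7 level, but its value moved widely, with 103 and 219 CPM in male WT, 89.3 and 35 in male KO, 67.1 and 201 in female WT, and 121 and 42.8 in female KO libraries. It exceeded Rgs7 in 8 of 8 libraries, by between 1.15-fold and 121-fold. The anchor Rgs7bp was far steadier, at 700 and 520 CPM in male WT, 629 and 667 in male KO, 748 and 597 in female WT, and 652 and 680 in female KO libraries. The summed R7 level was 28.7 CPM per kb (11.6 to 53.4), beside 40.5 for Gnb5 and 91.7 for Rgs7bp. The gap between them depends on the exon length used. With the principal transcript length (below), Rgs11 averaged 54.7 and Rgs7 7.10 CPM per kb, beside 69.9 for Gnb5 and 91.7 for Rgs7bp. Rgs9, the R7 protein of photoreceptors and striatum, was below 1 CPM, and Rgs9bp averaged 1.92 CPM.

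**Figure D1:**
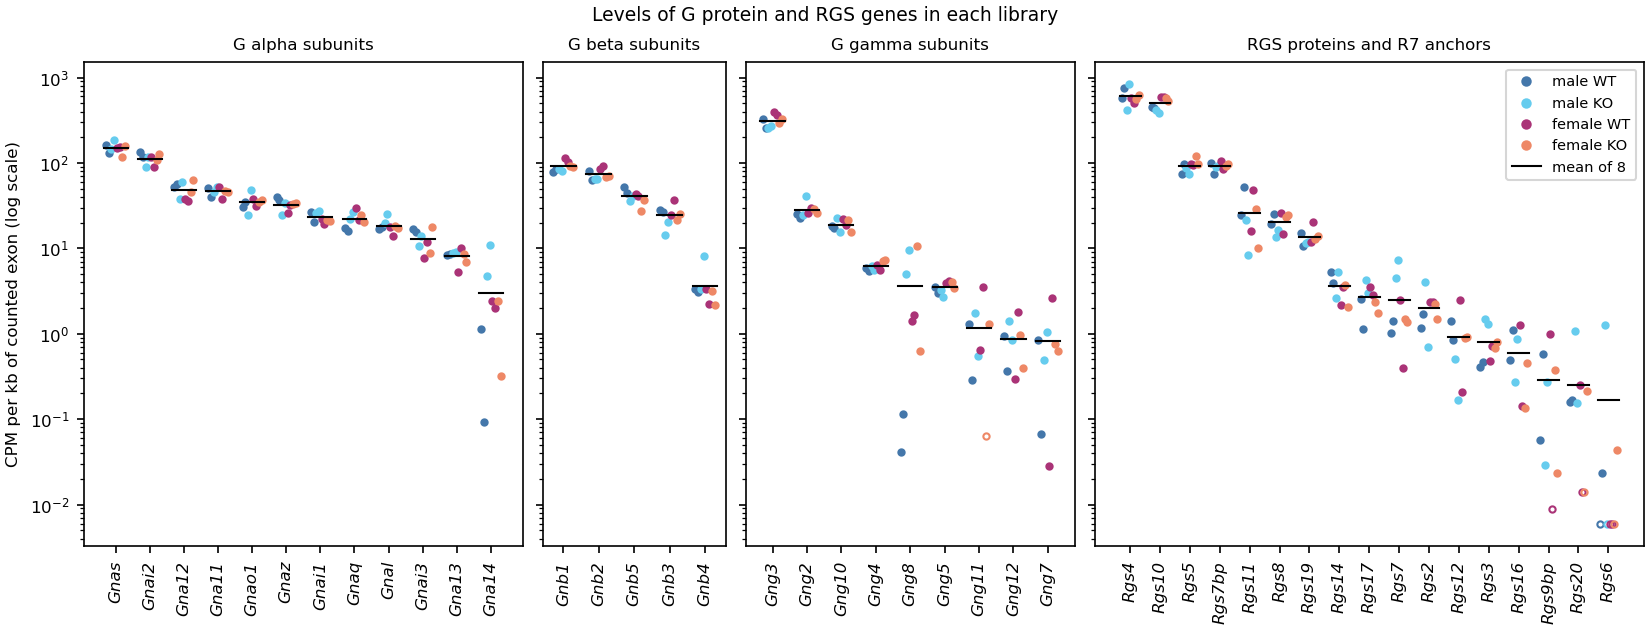
Level of each gene with a mean of at least 1 CPM in the 8 libraries, in CPM per kb of counted exon on a log scale, by family; points are libraries coloured by group, open points are below 3 counts and drawn at that floor, and lines are means of 8. Rgs4, Rgs10 and Gng3 stand above the rest of their families, and the spread between libraries widens at low levels.

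Rgs5 and Rgs10 are also known from other cells, and the markers of those cells were low. The pericyte markers Kcnj8 and Abcc9 had 0 counts in all 8 libraries, and the 11 vascular and mural markers summed to between 0.346 and 14.9 CPM per kb, beside 74.1 to 120 CPM per kb of Rgs5. The 12 immune markers, 2 of them at 0 in all libraries, summed to between 2.5 and 6.34 CPM per kb, beside 386 to 587 CPM per kb of Rgs10. The highest of the immune markers was Csf1r, and Ptprc, which encodes the leukocyte antigen CD45, had counts in 1 library alone.

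**Figure D2:**
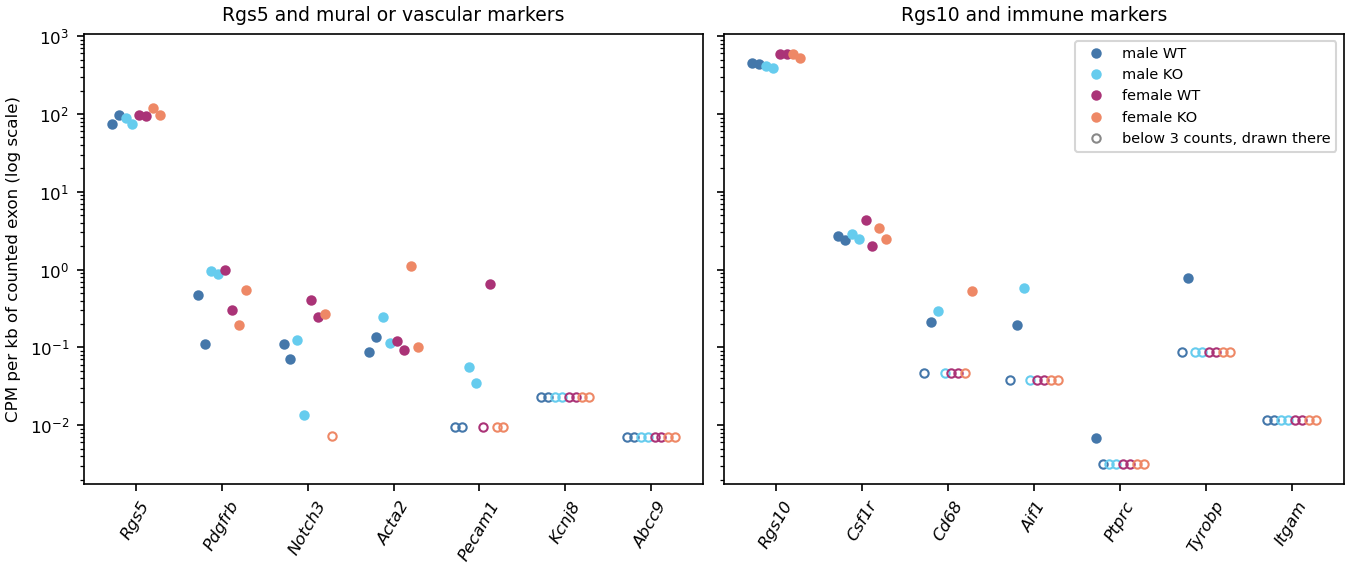
Rgs5 beside vascular and mural markers (left) and Rgs10 beside immune markers (right), in CPM per kb of counted exon on a log scale; points are the 8 libraries coloured by group, and open points lie below 3 counts and are drawn at that floor. Rgs5 and Rgs10 lie above every marker shown in every library, and Kcnj8 and Abcc9 have no counts.

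Several expressed genes lie beside silent relatives on GRCm38. On chromosome 1, Rgs2, Rgs13, Rgs1, Rgs21 and Rgs18 form a row from 143999338 to 144775435, in which Rgs2 (7.26 CPM) was the one with counts. On the same chromosome, Rgs5 (169655501 to 169695813) and Rgs4 (169741477 to 169747642), both among the highest RGS genes, are 45.66 kb apart. Rgs8 lies 40.03 kb from Rgs16 at 20.4 against 0.593 CPM per kb. Among alpha genes, Gna11 and Gna15 lie 4.499 kb apart on chromosome 10 at 46.6 and 0.332 CPM per kb. Gnai2 and Gnat1 lie 39.11 kb apart on chromosome 9, and Gnai3 and Gnat2 5.848 kb apart on chromosome 3, in each case with the Gi gene expressed and the transducin gene near 0.

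Some values share reads with an overlapping gene, because counting ignored strand and assigned a read to every gene it overlapped. Gm20503 covers 72.0% of the counted length of Gng10, so that value is uncertain. Bscl2 covers 24.2% of Gng3, Gm48283 20.4% of Gng2, Amz1 13.4% and Gm20721 12.9% of Gna12 and Gnas respectively, and Chtf18 51.6% of Gng13. Gm20721, on the opposite strand, was credited with 845023 counts over the 8 libraries beside 846990 for Gnas. Without strand the reads of the pair cannot be told apart, so the level of Gnas per kb and the Gs share are uncertain. Levels per kb also depend on the exon length used. With the length of the principal transcript instead, a setting added after the data were seen, Gnas became 439, Gnai2 191 and Gnao1 111 CPM per kb, Rgs10 (966) passed Rgs4 (636), and Gnb2 (135) passed Gnb1 (124). Gnao1, Gnal (59.0) and Gna11 (56.0) then lay above Gna12 (48.4), and Gnaz (33.3) lay far below Gnao1. The leading alpha class turned over, with Gs at 49.2% (44.6 to 53.9%) and Gi/o at 36.8% (31.9 to 40.4%).

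KO libraries were compared with WT libraries in males, in females and across both sexes, together with the difference between the sexes, which are the comparisons named by the study's design. Of the 55 genes, 47 had enough counts to be tested, with edgeR's quasi-likelihood test and Benjamini-Hochberg adjustment over all 22013 genes tested. No G protein or RGS gene passed an adjusted p of 0.05 in any of the 4 comparisons. The background was as low: 0.00454% of all genes, which is Bhlha9 itself, passed in males, in females and across both sexes, and 0% in the difference. Without adjustment, 6 of 47 (12.8%) had a p below 0.05 in males, where 3.5% of all genes did. The count was 1 (2.13%) in females beside 3.81% of all genes, 7 (14.9%) in the difference between the sexes beside 4.73%, and 5 (10.6%) across both sexes beside 3.56%. DESeq2, run as the alternative, called 2 in males (1% of all genes), 1 in females (1.19%), 1 in the difference (1.44%) and 1 across both sexes (0.544%). Over the 4 comparisons together, 11 of 47 had an unadjusted p below 0.05 with edgeR in at least 1 (10.1% of all genes), and DESeq2 called 4 of 47 in at least 1 (2.36%).

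Among the genes of high level, most fitted differences between genotypes were below 2-fold, a size of change mostly out of reach of the test. Of the 32 with a mean of at least 10 CPM, all 32 had a fitted female difference within 1 on the log2 scale. In males 29 had such a difference, the exceptions being Gna14, Rgs7 and Rgs11. Gna14 and Rgs7 reached a mean of 10 CPM only through male KO (group means 27.1 and 35.4 CPM). In every other group their means were below 10 CPM, so these exceptions partly follow from the cutoff. The log2 difference of KO against WT was 0.19 (SE 0.21) in males and -0.13 (SE 0.21) in females for Gnas, and -0.27 (SE 0.21) and 0.19 (SE 0.21) for Gnai2. It was -0.13 (SE 0.17) and -0.28 (SE 0.17) for Gng3, -0.08 (SE 0.32) and 0.12 (SE 0.32) for Rgs4, and -0.16 (SE 0.14) and -0.07 (SE 0.14) for Rgs10. The median over the tested genes was 0.06 in males, beside 0.02 over all genes, and -0.03 in females, beside 0.00 over all genes. With n = 2 per group, differences of this size were within the error of the fit, which does not show that the genotypes are equal.

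**Figure D3:**
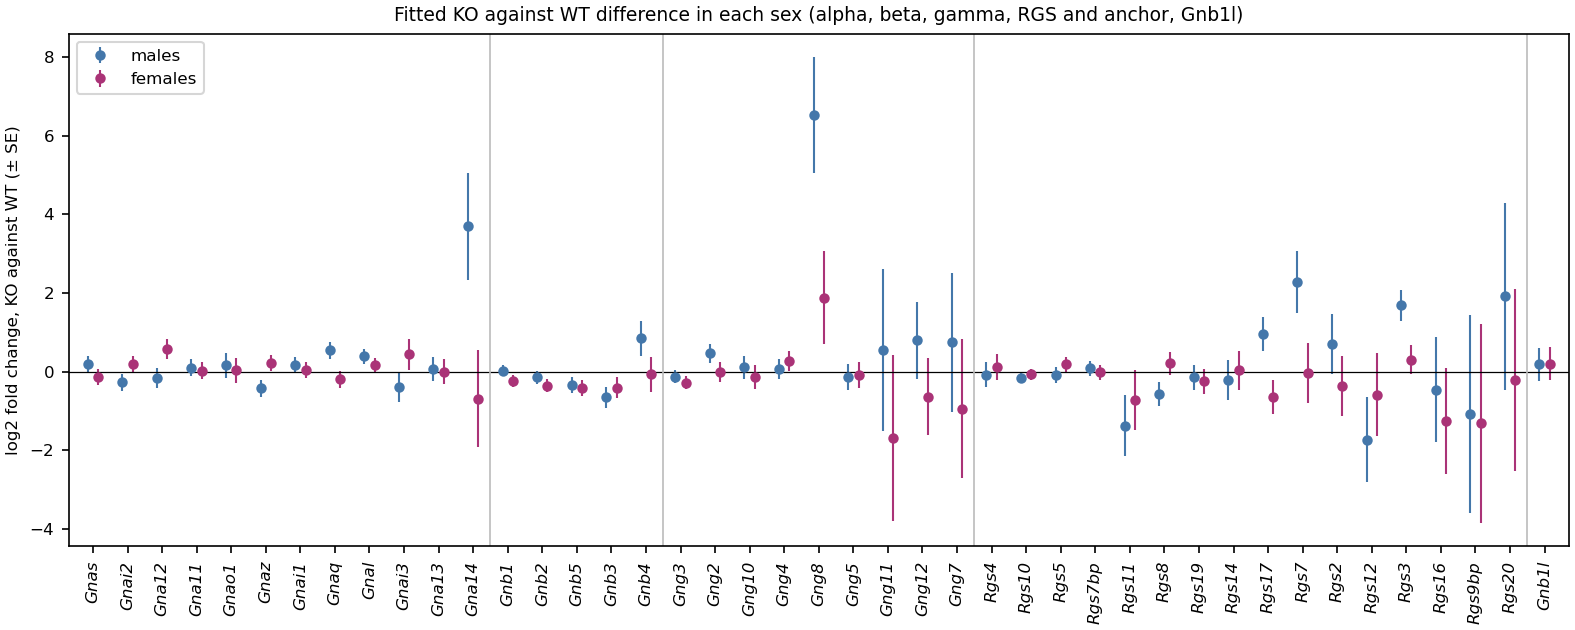
Fitted log2 difference of KO against WT in males (blue) and females (purple) for genes with a mean of at least 1 CPM, without Rgs6; bars are ± SE, and vertical lines separate alpha, beta, gamma, RGS with anchors, and Gnb1l. Most points lie near 0; in males Gng8, Gna14, Rgs7, Rgs20 and Rgs3 lie above 1 and Rgs12, Rgs11 and Rgs9bp below -1.

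Gng8, a gamma subunit known from olfactory and vomeronasal neurons, had the lowest p in males of all the family genes. It measured 0.0634 and 0.173 CPM in male WT, 7.54 and 14.7 in male KO, 2.15 and 2.50 in female WT, and 16.2 and 0.969 in female KO libraries. The male groups were far apart, whereas the female KO libraries lay on either side of the female WT ones. The male means of 0.118 and 11.1 CPM differed 93.9-fold, a log2 difference of 6.53 (SE 1.47, unadjusted p = 0.00331, adjusted p = 1 with edgeR). The male WT values rest on 4 and 11 counts. In females the log2 difference was 1.88 (SE 1.17), and the difference between the sexes was 4.65 (SE 1.72, adjusted p = 0.98 with edgeR). The difference between the sexes became 7.79 without female KO replicate 1 and 3.73 without female KO replicate 2. DESeq2 gave an adjusted p of 1.44e-05 in males and 0.0111 across both sexes. The authors' deposited table for males lists Gng8 with a log2 fold change of 2.57 and an adjusted p of 6.59e-09. The submitters name another version of DESeq2 (below), so the sizes of the authors' fold changes are not compared with those here. Gng8 stayed far below Gng3 in level, at most 10.7 against at least 254 CPM per kb in any library.

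Rgs3 and Rgs7, RGS genes of low level, were also higher in both male KO than in both male WT libraries. Rgs3 is an R4-class protein that acts on Gi and Gq alpha, and Rgs7 is an R7-class protein of neurons. Rgs3 measured 4.39 and 5.02 CPM in male WT, 16.3 and 14 in male KO, 5.14 and 7.76 in female WT, and 7.28 and 8.68 in female KO libraries. The male log2 difference was 1.68 (SE 0.39, adjusted p = 1 with edgeR and 0.00256 with DESeq2), which is 3.21-fold in the means, beside 0.31 (SE 0.38) in females, where the groups overlapped. Rgs7 measured 6.17 and 8.41 CPM in male WT, 27.1 and 43.7 in male KO, 15.1 and 2.38 in female WT, and 8.99 and 8.19 in female KO libraries. Only the 2 male KO libraries exceeded 20 CPM, and the male log2 difference was 2.28 (SE 0.80, adjusted p = 1 with edgeR and 0.138 with DESeq2). The authors' deposited table for males lists Rgs3 at 1.23 (adjusted p 0.0268) and Rgs7 at 1.69 (adjusted p 9.04e-05) on the log2 scale, and their table for females lists no gene of these families.

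Among alpha genes, Gna14 and Gnaq of the Gq family were higher in male KO than in male WT libraries, with unadjusted p of 0.0315 and 0.0413 and adjusted p = 1 with edgeR. Gna14 measured 3.89 and 0.314 CPM in male WT, 16.4 and 37.8 in male KO, 8.42 and 6.92 in female WT, and 8.42 and 1.11 in female KO libraries. Its male log2 difference of 3.69 (SE 1.36) became 6.42 without male WT replicate 1 and 2.77 without male WT replicate 2. Gnaq measured 108 and 99.2 CPM in male WT, 136 and 166 in male KO, 183 and 133 in female WT, and 150 and 127 in female KO libraries. The low values of Gnaq were thus the male WT ones, and male KO libraries lay within the range of the females. The male log2 difference of Gnaq was 0.54 (SE 0.22), and in females it was -0.19 (SE 0.22).

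Among beta genes, Gnb3 and Gnb5 had an unadjusted p below 0.05. Gnb3 measured 73.0 and 70.4 CPM in male WT, 38.0 and 53.0 in male KO, 65.3 and 96.4 in female WT, and 55.8 and 66.4 in female KO libraries. The groups did not overlap in males and overlapped in females, and the log2 difference across both sexes was -0.53 (SE 0.18, unadjusted p = 0.0195, adjusted p = 1 with edgeR). Gnb5, with the values given above, was lower in both KO libraries than in both WT libraries of either sex, and its log2 difference across both sexes was -0.37 (SE 0.13, unadjusted p = 0.0234, adjusted p = 1 with edgeR). In females the fitted difference was below 0 for all 5 beta genes, at -0.24 for Gnb1, -0.36 for Gnb2, -0.40 for Gnb3, -0.07 for Gnb4 and -0.41 for Gnb5, beside 10990 of all 22013 genes below 0. In males 3 beta genes were below 0 and 2 above, with Gnb4 at 0.84 (SE 0.45) and Gnb1 at 0.02. None of these passed the test.

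Rgs17, an RZ-class protein that acts on Gi/o and Gz alpha, had opposite signs in the sexes. It measured 21.5 and 9.56 CPM in male WT, 35.4 and 25.2 in male KO, 29.3 and 23.4 in female WT, and 19.3 and 14.6 in female KO libraries. The groups did not overlap in either sex, and the difference between the sexes was 1.6 on the log2 scale (SE 0.61, unadjusted p = 0.0359, adjusted p = 0.98 with edgeR). Gnaz showed separate groups in the opposite sense, at 146 and 134 CPM in male WT, 87.6 and 121 in male KO, 92.4 and 116 in female WT, and 119 and 123 in female KO libraries, without a p below 0.05.

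Over the 47 tested genes, both KO libraries were above both WT libraries for 9 in males (14.5% of all genes) and for 5 in females (14.2%), and below them for 9 in males (14.5%) and 7 in females (15.1%). As shares of the 47 these are 19.1%, 10.6%, 19.1% and 14.9%, not far from the background. Gnb5 and Rgs10 were lower in both sexes, 2 of 47 beside 1.99% of all genes, and none of the 47 was higher in both, beside 1.92%.

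**Figure D4:**
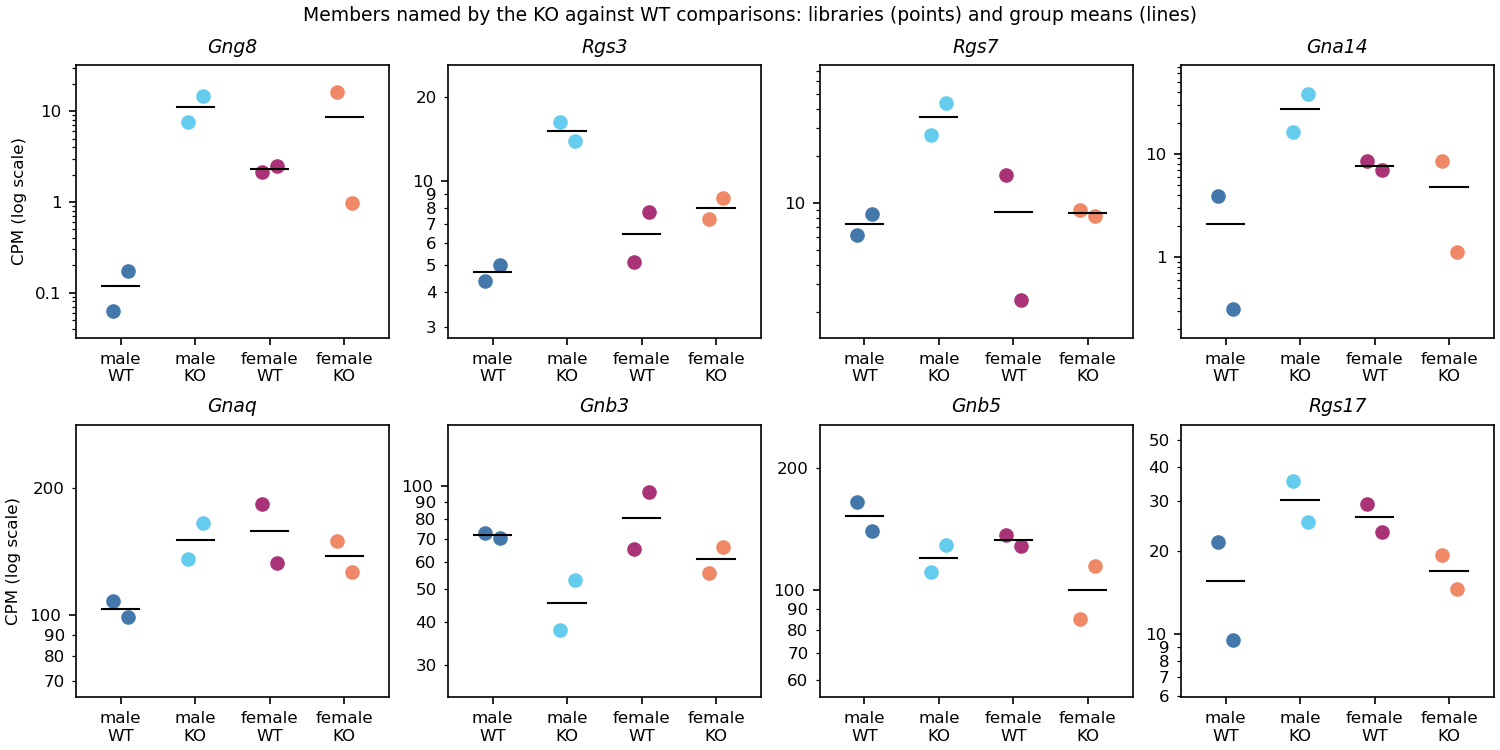
CPM on a log scale for 8 genes with an unadjusted p below 0.05 in at least 1 comparison, by group; points are libraries and lines are group means. Gng8, Rgs3, Rgs7 and Gna14 are separated in males and not in females, and the axes differ between panels.

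Of the remaining genes with an unadjusted p below 0.05, Rgs6, Gna15 and Gnat2 had no count in at least 4 libraries. Rgs6 had 0 and 15 counts in male WT, 730 and 0 in male KO, 0 and 0 in female WT, and 0 and 31 in female KO libraries. Gna15, the Gq-family subunit of blood cells, had 0 and 47 counts in male WT, 75 and 247 in female KO libraries and none in the other 4. Gnat2 had 75 and 27 counts in male WT, 3 and 0 in male KO, 0 and 0 in female WT, and 0 and 49 in female KO libraries. Each of these genes was at 0 in 1 library and above 0 in the replicate of the same group, and no fold is given for them. The calls of Rgs6 in females (adjusted p = 7.32e-05) and of Gna15 in the difference between the sexes (adjusted p = 0.0361) by DESeq2 rest on these counts.

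Markers of other sensory neurons moved between libraries as well. The 11 peptidergic nociceptor markers summed to 700 and 756 CPM in male WT, 1521 and 2123 in male KO, 1219 and 2003 in female WT, and 1570 and 507 in female KO libraries. The 8 markers of myelinated afferents summed to 377 and 243 CPM in male WT, 2113 and 495 in male KO, 334 and 279 in female WT, and 454 and 284 in female KO libraries. The 9 nonpeptidergic and pruriceptor markers summed to 64.6 and 92.8 CPM in male WT, 92.5 and 312 in male KO, 67.2 and 54.0 in female WT, and 118 and 27.2 in female KO libraries. Both male KO libraries thus exceeded both male WT libraries in the peptidergic and the myelinated sums. They did so for 9 of the 47 tested genes, among them Gng8, Rgs3, Rgs7 and Gna14, and for 14.5% of all genes. The 11 C-LTMR markers ran the other way in males. They summed to 9535 and 9605 CPM in male WT, 6468 and 8592 in male KO, 9598 and 8338 in female WT, and 8843 and 10643 in female KO libraries, and 0 of 11 were higher in male KO and 11 of 11 in female KO by group mean. The 10 glial markers, mostly Pmp22, summed to between 2549 and 4012 CPM, lowest in male KO replicate 1. Without Pmp22 and Mbp, which neurons also express, they summed to 176 and 36.2 CPM in male WT, 546 and 254 in male KO, 132 and 216 in female WT, and 96.3 and 162 in female KO libraries, so that both male KO libraries lay above both male WT libraries. The 5 fibroblast markers summed to 15.4 and 8.27 CPM in male WT and 64.1 and 19.9 in male KO libraries. In females they summed to 33.5 and 45.9 in WT and 6.13 and 13.8 in KO libraries. The 11 vascular and mural markers summed to 3.71 and 1.54 CPM in male WT and 14.2 and 5.35 in male KO libraries. In females these were 8.98 and 39.9 in WT and 6.17 and 3.30 in KO libraries. In males the immune and red blood cell sums overlapped. The part of such other cells in the differences above was not tested.

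The partners of the G proteins were read from fixed lists, and none of their genes passed edgeR's adjusted threshold in any comparison. DESeq2 called 3 of them: Plcb3 in males (adjusted p = 0.00172) and in the difference between the sexes (0.018), Gpr158 in that difference (0.0258), and Pik3r6, whose 381 counts all came from male KO replicate 1. The counts below stand beside 10.1% of all genes with an unadjusted p below 0.05 in at least 1 comparison, and the DESeq2 calls beside 2.36%. Phf24, which encodes GINIP, a protein that binds active Gi alpha in C-LTMRs and other sensory neurons, averaged 2313 CPM or 325 CPM per kb, above every alpha gene on the counted lengths. Its log2 difference was -0.24 (SE 0.23) in males and 0.04 (SE 0.23) in females. The transducin gamma genes, which lie outside the symbol rule, gave 0 counts for Gngt1 and a mean of 0.54 CPM for Gngt2. Of the receptor kinases and arrestins, which switch receptors off, 8 of 10 were tested and none had an unadjusted p below 0.05. The highest was Grk2, at 281 CPM on average. Of the chaperones, exchange factors and GoLoco proteins, 13 of 15 were tested, and Ric8a (male log2 difference -0.47) and Gprin1 (female 0.63) had an unadjusted p below 0.05. Ric8a folds newly made alpha subunits.

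Among 10 other RGS-domain and RGS-binding genes, of which Arhgef11 was the highest per kb, Gpr158 and Gpr179 had an unadjusted p below 0.05. Gpr158, an orphan receptor that recruits R7 complexes, measured 8.07 and 4.39 CPM in male WT, 29.2 and 9.68 in male KO, 12.1 and 12.4 in female WT, and 4.03 and 4.58 in female KO libraries. The groups were separate with opposite signs in the sexes, as for Rgs17, and the difference between the sexes was 3.15 on the log2 scale (SE 0.83, unadjusted p = 0.00715, adjusted p = 0.98 with edgeR). Gpr179 averaged 0.568 CPM. Of 23 effector genes, led per kb by Arhgef25 at 27.1 CPM per kb, 17 were tested, and Plcb3, Adcy2 and Adcy3 had an unadjusted p below 0.05 in the difference between the sexes. Plcb3, a phospholipase C that Gq alpha and beta-gamma activate, measured 12.2 and 8 CPM in male WT, 35.1 and 227 in male KO, 45.4 and 27.3 in female WT, and 36.9 and 9.78 in female KO libraries. The male log2 difference of Plcb3 was 3.70 (SE 1.01, adjusted p = 1 with edgeR), and the authors' deposited table for males lists it at 1.83 with an adjusted p of 0.000332.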

How the data were processed

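RNA of sorted C-LTMRs was sequenced in 8 libraries. Per the labels' protocols, cDNA was amplified with SMART-Seq v4 from 500 pg of RNA in 13 PCR cycles, and Nextera XT libraries in 12 more, without molecular identifiers. The deposited count table holds whole read counts per gene; per the file headers it was made with featureCounts 1.6.1 over exons of Ensembl release 97 on GRCm38, unstranded, with a read counted in every gene it overlaps. The submitters' processing notes also name bcl2fastq 2.17.1.14, Subread 1.6.4 and DESeq2 1.14.1, and no source used here names the aligner. The authors' deposited tables list genes past their threshold only; each has its log2 fold change and error, a test score and p-values, per the file headers.

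Symbols came from the reference annotation by identifier, for 55394 of 55573 genes. CPM used TMM-scaled totals; CPM per kb divided by the counted exon length. Genes were tested with edgeR 4.0.16 (R 4.3.3; filterByExpr, TMM, robust quasi-likelihood F test, two-sided) in a fit of 4 groups over all 8 libraries with 4 residual degrees of freedom, and with an additive model of sex and genotype across both sexes. SE is the log2 difference divided by the root of F. DESeq2 1.42.0, its size factors, no filter, a replicate block, each sex alone and leaving out each library were alternatives. Counts were also simulated for all 8 libraries, with changes placed in male KO at genes above 1 CPM, and 21057 genes were tested. The test in males recovered 1 of 50 changes of 2-fold, 14 of 50 of 4-fold and 29 of 50 of 8-fold. It recovered 34 of 50 of 16-fold, and 4 of 20857 unchanged genes also passed.

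Members and lists were chosen with earlier results of these data known. Named were genes of at least 10 CPM, the 3 highest of each family with all values, genes with an unadjusted p below 0.05 or in the authors' tables, and, from lists of partners, those below that p and the highest. Coding ends were read from the GENCODE annotation.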

Additional observations from a re-analysis of the deposited data

How the results depend on the processing

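No family gene passed edgeR's adjusted threshold with DESeq2's size factors, without the filter, with the replicate block, within each sex or without any 1 library, and no named difference reversed under any alternative. Without 1 library, 1 to 1 genes passed in males, in females and across both sexes, 0 to 0 in the difference, and 0 to 0 family genes throughout. DESeq2 called 203 genes in males (147 higher, 56 lower), 234 in females (110, 124), 284 in the difference (210, 74) and 117 across both sexes (65, 52), and 2, 1, 1 and 1 family genes; the cause was not tested. Using only the 4 libraries of a sex left 0 genes in males and 0 in females. The replicate block left 1 gene in males, 0 in females and 1 across both sexes. The difference between replicates 1 and 2 correlated between -0.10 and 0.11 across pairs of groups. Such low values over all genes do not settle whether same-numbered libraries share a preparation. With the principal transcript length, levels moved for Gnas (439 CPM per kb), Gnai2 (191), Gnb1 (124), Gnb2 (135), Gnb5 (69.9) and Rgs10 (966), because the counted length holds exons of other transcripts. With 2 libraries a group, changes of 2-fold are mostly out of reach of the test.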
